A study of Mus musculus with 16 samples.

Results

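Transcripts of the D, E, A and B cyclins were followed across mouse germline stem (GS) cells kept in low or ambient oxygen. The members were the rows of the deposited table of protein-coding genes whose symbol was Ccnd1, Ccnd2, Ccnd3, Ccne1, Ccne2, Ccna1, Ccna2, Ccnb1 or Ccnb2, which gave 9 of 21924 genes. GS cells are spermatogonial stem cells of the testis expanded in culture, here over mouse embryonic fibroblast feeders, with the growth factors GDNF and FGF2. Bulk RNA was sequenced from 16 libraries, 2 for each of 8 groups. Wild type cells of the DBA/2 strain were taken at 1% and at 20% oxygen. Cells of a 129 x C57BL/6 mixed background, called the Hif1a line here, were either labelled Hif1a KO or Hif1a wild-type, each at 1% and at 20% oxygen. The KO cells had been given AxCANCre, an adenovirus that carries Cre recombinase, on the day that hypoxia began, and the sources used here do not give whether wild type cells received a control virus. C57BL/6 cells were Top1mt KO or Top1mt wild type, both at 1% oxygen, so the effect of oxygen cannot be read in that line. The series text gives 2 days at 1% oxygen, whereas libraries of the Hif1a line at 1% have "6d" in their names and the Top1mt libraries "2d". The labels do not say that replicates were separate cultures, so p-values measure the spread between these libraries, which may be technical.

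Cyclins are the regulatory subunits that switch on cyclin-dependent kinases (CDKs) and set the order of the cell cycle. D cyclins pair with Cdk4 and Cdk6 in response to growth factors and start the inactivation of the retinoblastoma protein; E cyclins pair with Cdk2 at the entry into S phase; A cyclins act through S and G2 phase; B cyclins pair with Cdk1 to drive mitosis. Spermatogonial stem cells are known to depend on growth factor signals that act on D cyclins, and Ccna1 is known in the mouse as a cyclin of male meiosis.

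The promoters of the mitotic cyclins Ccnb1 and Ccnb2 are shown because these genes had nearly parallel levels over the groups (see the correlation given with the B cyclins). Each run is 250 bases before to 50 after the RefSeq start site on the minus strand of GRCm38.p6, at chr13:100786437-100786736 for Ccnb1 and chr9:70421505-70421804 for Ccnb2. Capitals mark CCAAT, the box bound by NF-Y, and TTTGAA, a cell cycle genes homology region (CHR).

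Ccnb1: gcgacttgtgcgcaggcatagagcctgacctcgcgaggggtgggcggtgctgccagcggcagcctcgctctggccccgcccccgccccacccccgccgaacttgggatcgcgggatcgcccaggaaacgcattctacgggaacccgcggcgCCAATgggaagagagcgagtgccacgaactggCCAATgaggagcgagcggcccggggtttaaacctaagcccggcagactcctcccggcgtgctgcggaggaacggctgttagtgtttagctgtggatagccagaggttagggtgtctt

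Ccnb2: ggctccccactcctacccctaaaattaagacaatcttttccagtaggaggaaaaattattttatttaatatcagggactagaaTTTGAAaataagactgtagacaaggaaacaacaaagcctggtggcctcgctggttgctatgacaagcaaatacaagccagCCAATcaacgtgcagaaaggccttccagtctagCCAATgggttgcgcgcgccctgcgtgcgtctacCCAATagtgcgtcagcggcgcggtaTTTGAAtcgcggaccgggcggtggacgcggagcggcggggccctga

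Both strands of each window were searched for these motifs, which do not overlap each other there. Ccnb2 held CCAAT at -87, -54 and -21 from the start site and TTTGAA at -167 and 4. Ccnb1 held CCAAT at -99 and -67 and no TTTGAA in this window. Among 32851 promoter windows of 300 bases, 37.4% held CCAAT and 17.9% held TTTGAA on either strand. The core sequences of hypoxia response elements were also searched: Ccnb2 held ACGTG at -80 and GCGTG at -33, and Ccnb1 held GCGTG at -12, against 19.6% of windows with ACGTG and 32.4% with GCGTG. Windows were at hand for 5 of the 9 members, Ccna1, Ccne1 and Ccnd3 being the others, and none was used for Ccnd1, Ccnd2, Ccne2 and Ccna2. Ccna1 held CCAAT at -107 and GCGTG at -162, and Ccnd3 held CCAAT at -108 and GCGTG at -132. Ccne1 held ACGTG at -248 and GCGTG at -184, -168 and -151, without CCAAT. A further Ccnd3 window held none of these motifs, and TTTGAA was found only in Ccnb2.

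Values were read counts scaled to the total on protein-coding genes (CPM), from 11942104 to 25659895 reads per library, so that 1 read was worth 0.0390 to 0.0837 CPM. All members but Ccna1 had at least 127 reads in every library. Hif1a reads went against the genotype label: they averaged 605.7 ± 17.7 CPM in libraries labelled Hif1a KO and 250.7 ± 0.0154 CPM in wild type at 1% oxygen, and 140.6 ± 1.86 CPM and 117 ± 1.11 CPM at 20% (SD, n = 2 each). Which part of the gene was deleted is not given in the labels, and reads outside it check nothing, so these libraries are called by their label. Top1mt reads averaged 10.5 ± 0.685 CPM in Top1mt KO and 33.8 ± 1.36 CPM in Top1mt wild type cells (SD, n = 2 each). Library numbers in the sample names jump between the oxygen levels in both lines that have both, so oxygen and library set cannot be told apart. The 10 germ cell markers, among them Ddx4 and Dazl, were all detected in every group and summed to 1547 to 4327 CPM. The 20 feeder fibroblast markers, among them Col1a1 and Pdgfra, were also all detected, with sums of 4459 to 43537 CPM. The 6 Sertoli and Leydig cell markers summed to 13.96 to 26.0 CPM, with Hsd3b1 at 0 in both DBA/2 groups, and the 5 leukocyte markers to 11.6 to 22.9 CPM. In bulk RNA, fewer cells of a type and less RNA per cell cannot be told apart.

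Per kilobase of exon, D cyclins made up the largest class of the 9 in every group. Exon length was the union of all annotated exons of a gene, so orders between genes and class shares depend on the annotation. Averaged over groups, Ccnd2 had 91.2 CPM per kb, Ccnd1 61.1, Ccnb2 43.0, Ccna2 32.6, Ccnb1 23.2, Ccnd3 18.4, Ccne1 16.5, Ccne2 5.52 and Ccna1 0.785. D cyclins held 75.9% of the summed cyclin level per kb in the libraries labelled Hif1a KO at 1% oxygen, the highest share of the 8 groups, and 39.0% in DBA/2 cells at 1%, the lowest. Within the D class, Ccnd1 took 47.4% per kb in both groups labelled Hif1a KO and 22.2% to 39.2% in the other groups. The B class held 13.5% of the summed level in the libraries labelled Hif1a KO at 1% and 33.5% in Hif1a-line wild type cells at 1%.

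**Figure D1:**
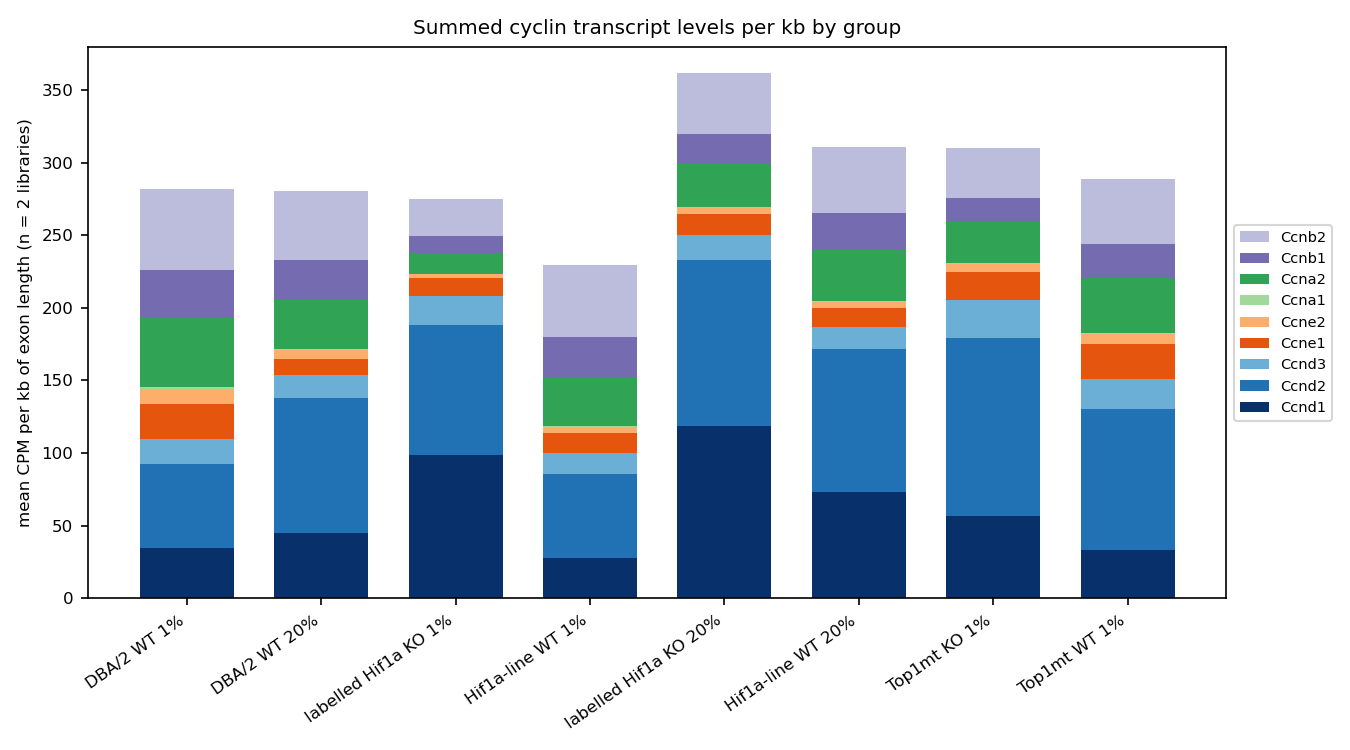
Stacked bars of the mean CPM per kb of exon length (vertical axis, n = 2 libraries per group) of the 9 cyclins in the 8 groups (horizontal axis). The D cyclins, in blue, hold 75.9% of the bar of the libraries labelled Hif1a KO at 1% oxygen and 39.0% of that of DBA/2 cells at 1%.

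The question behind each comparison was what low oxygen, or the genotype, did to GS cells, and limma on log2(CPM + 1) with Benjamini-Hochberg adjustment over the 14841 genes tested was used for all. All 9 cyclins were tested. Within DBA/2 cells at 1% against 20% oxygen, 9 of 9 cyclins passed the test at an adjusted p of 0.05, 7 higher and 2 lower, where 57.4% of all genes did, 31.8% higher and 25.5% lower; the members' median log2 fold change was 0.22, beside 0.04 for all genes. In Hif1a-line wild type cells at 1% against 20%, 2 of 9 passed, both lower, where 53.1% of all genes did, 18.4% higher and 34.6% lower; the medians were -0.02 for members and -0.09 for all genes. Under median-of-ratios scaling, and with edgeR, 5 passed there, 3 higher and 2 lower. Within the libraries labelled Hif1a KO at 1% against 20%, 9 of 9 passed, 1 higher and 8 lower, where 79.9% did, 25.2% higher and 54.7% lower, with medians of -0.68 and -0.29. Between labelled Hif1a KO and wild type libraries at 20%, 5 of 9 passed, 3 higher and 2 lower, where 22.4% did, 12.9% higher and 9.55% lower, with medians of -0.03 for both. At 1% oxygen the same contrast had 8 of 9, 3 higher and 5 lower, where 77.4% did, 28.3% higher and 49.1% lower, with medians of -0.67 and -0.21. Top1mt KO against wild type cells at 1% had 8 of 9, again 3 higher and 5 lower, where 58.4% did, 25.2% higher and 33.2% lower, with medians of -0.32 and -0.04. The difference of the oxygen responses of labelled Hif1a KO and wild type libraries passed for 7 of 9 cyclins, where it did for 58.0% of all genes. That between the Hif1a-line and DBA/2 wild type responses passed for 6 of 9, all lower, where it did for 46.0%, 15.1% higher and 30.9% lower. Where these shares of all genes were high, a count of members near them says little about the cyclins, and sizes and directions are given for each.

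A second scaling, by median-of-ratios size factors, moved the median of all genes by 0.31 in the oxygen contrast of the libraries labelled Hif1a KO, by 0.23 between them and wild type at 1%, by 0.23 in the difference of their oxygen responses, and by 0.12 in the difference between the Hif1a-line and DBA/2 responses. For these contrasts values less the median of all genes are given too. The same scaling moved the share of higher calls among all genes called to 49.65%, against 34.75%, for Hif1a-line wild type cells at 1% against 20%, to 52.96%, against 31.58%, for the libraries labelled Hif1a KO, and to 54.16%, against 36.6%, between these and wild type at 1%. For the difference of their oxygen responses the share moved to 61.38%, against 32.77%, and for that between the Hif1a-line and DBA/2 responses to 51.54%, against 32.91%. Contrasts within the Hif1a line share libraries, and their values are not independent of one another.

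**Figure D2:**
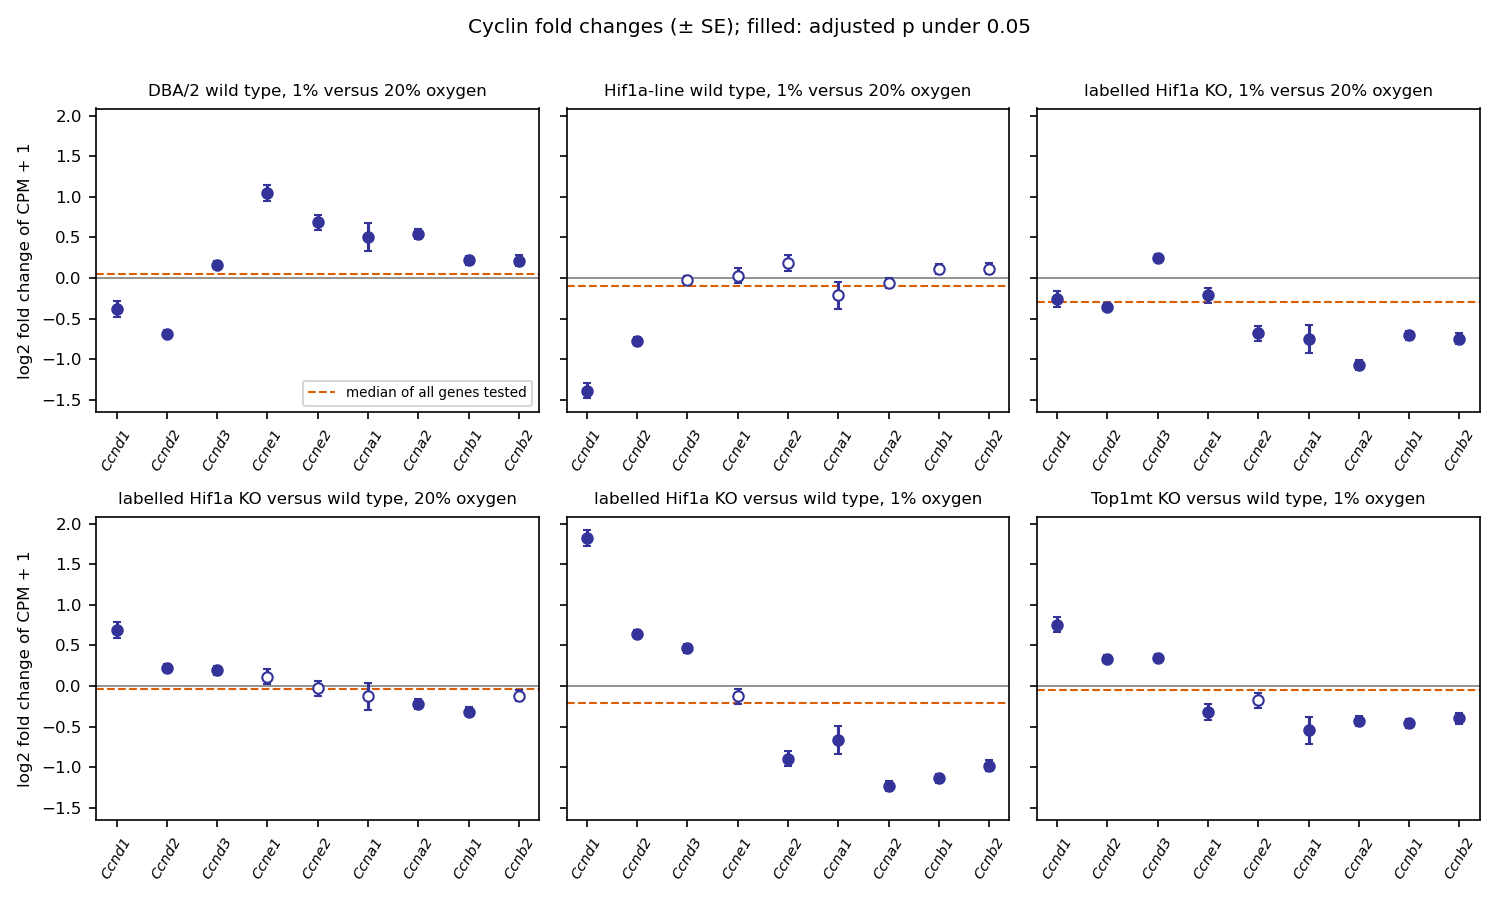
Log2 fold change of CPM + 1 (vertical axis, ± SE from limma) of the 9 cyclins (horizontal axis) in 6 comparisons, filled where the adjusted p was under 0.05, with the median of all genes tested as a dashed line. D cyclins lie above 0 and the filled E, A and B cyclins below it in labelled Hif1a KO against wild type at 1% and in Top1mt KO against wild type.

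D cyclins differed by member between the oxygen levels: Ccnd1 and Ccnd2 were lower at 1% in both wild type lines, and Ccnd3 was not called lower in any oxygen comparison. All 3 were higher in labelled Hif1a KO and in Top1mt KO libraries than in their wild types. Ccnd1, the D cyclin most tied to mitogen signals, lies at chr7:144929931-144939925 (GRCm38, minus strand). It had 176 and 149.5 CPM in DBA/2 cells at 1% oxygen, against 227 and 198 CPM at 20%. Both libraries of each group labelled Hif1a KO were high, with 469.8 and 461 CPM at 1% and 517 and 598 CPM at 20%, and Hif1a-line wild type cells had 115 and 149 CPM at 1% and 339 and 349.6 CPM at 20%. Top1mt KO cells had 266 and 269 CPM, against 152 and 164 CPM in Top1mt wild type cells. Both groups labelled Hif1a KO lay above every other library, and the groups of a pair did not overlap in any of these comparisons.

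Ccnd1 fell by 1.39 ± 0.10 on the log2 scale in Hif1a-line wild type cells at 1% against 20% oxygen (limma adjusted p = 4.07e-10) and by 0.38 ± 0.10 in DBA/2 cells (adjusted p = 0.00197), where the call was lost without library 2 at 1%, with a fold change of -0.27 (adjusted p = 0.0558). The responses differed by -1.01 ± 0.13 (adjusted p = 7.23e-06), or -0.88 less the median. In the libraries labelled Hif1a KO it fell by 0.26 ± 0.10 at 1% against 20% (adjusted p = 0.0192), but was 0.03 less the median and had the opposite sign, uncalled, under median-of-ratios scaling (0.11, adjusted p = 0.337) and edgeR (0.06, adjusted p = 0.566). That call was also lost without library 2 at 20% (-0.15), library 1 at 1% (-0.27) or library 2 at 1% (-0.24). Between labelled Hif1a KO and wild type, Ccnd1 was higher by 1.82 ± 0.10 at 1% (adjusted p = 3.67e-12; 2.03 less the median) and by 0.69 ± 0.10 at 20% (adjusted p = 6.62e-05). The oxygen response of labelled KO libraries exceeded that of wild type by 1.13 ± 0.13 (adjusted p = 1.18e-06; 1.30 less the median). Top1mt KO cells were higher than wild type by 0.76 ± 0.10 (adjusted p = 1.38e-06).

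Ccnd2, which GDNF and FGF signals are known to sustain in spermatogonial stem cells, lies at chr6:127125162-127152193 (minus strand). It had 569 and 514 CPM in DBA/2 cells at 1% oxygen, against 879 and 865 CPM at 20%. Under the Hif1a KO label there were 842 and 838 CPM at 1% and 1095 and 1060.1 CPM at 20%, and Hif1a-line wild type cells had 542 and 538 CPM at 1% and 920.5 and 931 CPM at 20%. Libraries labelled Top1mt KO had 1156 and 1146 CPM, against 929.6 and 896 CPM in wild type. The 4 wild type libraries of DBA/2 and the Hif1a line at 1% formed the low end, those of Top1mt wild type lay above them, and no compared groups overlapped.

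Ccnd2 fell by 0.69 ± 0.05 in DBA/2 cells (limma adjusted p = 6.66e-10) and by 0.78 ± 0.05 in Hif1a-line wild type cells (adjusted p = 1.22e-10) at 1% against 20% oxygen. The difference of these 2 responses was -0.09 ± 0.07 and missed the threshold (adjusted p = 0.305). Within the libraries labelled Hif1a KO it fell by 0.36 ± 0.05 (adjusted p = 1.39e-06), which was -0.07 less the median, with no call under the other scaling and an opposite sign of 0.00455 (adjusted p = 0.940). Libraries labelled Hif1a KO exceeded wild type by 0.64 ± 0.05 at 1% (adjusted p = 4.83e-10; 0.84 less the median) and by 0.22 ± 0.05 at 20% (adjusted p = 0.00350). The difference of their oxygen responses was 0.42 ± 0.07 (adjusted p = 4.64e-05; 0.59 less the median). Top1mt KO exceeded wild type by 0.33 ± 0.05 (adjusted p = 8.65e-06).

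Ccnd3, the third D cyclin, is known mainly from lymphoid and differentiating cells and lies at chr17:47505051-47599691 (plus strand). It had 151 and 156 CPM in DBA/2 cells at 1%, against 138 and 137 CPM at 20%. Hif1a KO-labelled libraries had 178 and 179 CPM at 1% and 143 and 158 CPM at 20%, and Hif1a-line wild type cells had 128 and 131 CPM at 1% and 129 and 133 CPM at 20%. The Top1mt KO libraries had 223 and 236 CPM, against 176 and 184 CPM in wild type. It had the narrowest range of the 9, with 1.77-fold between the highest and lowest group, and only the Hif1a-line wild type groups overlapped.

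Ccnd3 rose by 0.16 ± 0.05 in DBA/2 cells at 1% (limma adjusted p = 0.0114), a call lost without library 2 at 20% (0.15, adjusted p = 0.0577) or library 2 at 1% (0.13, adjusted p = 0.0907). It rose by 0.25 ± 0.05 in the libraries labelled Hif1a KO (adjusted p = 1.69e-04; 0.54 less the median), and its fold change was -0.02 ± 0.05 in Hif1a-line wild type cells (adjusted p = 0.747). Libraries labelled Hif1a KO were higher than wild type by 0.46 ± 0.05 at 1% (adjusted p = 8.06e-08; 0.67 less the median) and by 0.19 ± 0.05 at 20% (adjusted p = 0.0110), where the call was lost without wild type library 1 (0.17) or labelled KO library 2 (0.12). The responses of the Hif1a line and DBA/2 differed by -0.18 ± 0.07 (adjusted p = 0.0458; -0.05 less the median), a call lost under median-of-ratios scaling (-0.06, adjusted p = 0.541) and on leaving out any library but wild type library 2 of the Hif1a line at 1% (-0.21 to -0.16). The responses of labelled KO and wild type differed by 0.27 ± 0.07 (adjusted p = 0.00344; 0.44 less the median). Top1mt KO was higher by 0.35 ± 0.05 (adjusted p = 8.23e-06).

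The summed feeder fibroblast markers were higher where the D cyclins were higher in KO comparisons, and went with or against Ccnd1 and Ccnd2 in the oxygen comparisons. The sum was higher by 0.84 on the log2 scale in labelled Hif1a KO than in wild type libraries at 1%, with 20 of 20 markers called higher, by 0.47 at 20%, with 17 of 20, and by 0.93 in Top1mt KO against wild type, with 20 of 20. In Hif1a-line wild type cells the sum was higher by 1.72 at 1% against 20%, with 16 of 20 called higher and 2 lower. Ccnd1 and Ccnd2 fell there. The libraries labelled Hif1a KO had the widest difference, 2.10 at 1% against 20%, with 20 of 20 called higher, and there Ccnd1 and Ccnd2 were called lower and Ccnd3 higher. Less the median of all genes, Ccnd1 was 0.03 and Ccnd2 -0.07 there, and neither was called under median-of-ratios scaling or with edgeR. In DBA/2 cells the sum was lower by 0.35, with 12 of 20 called lower and 3 higher, and Ccnd1 and Ccnd2 fell there too. The part of feeder RNA in the D cyclin levels was not tested.

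**Figure D3:**
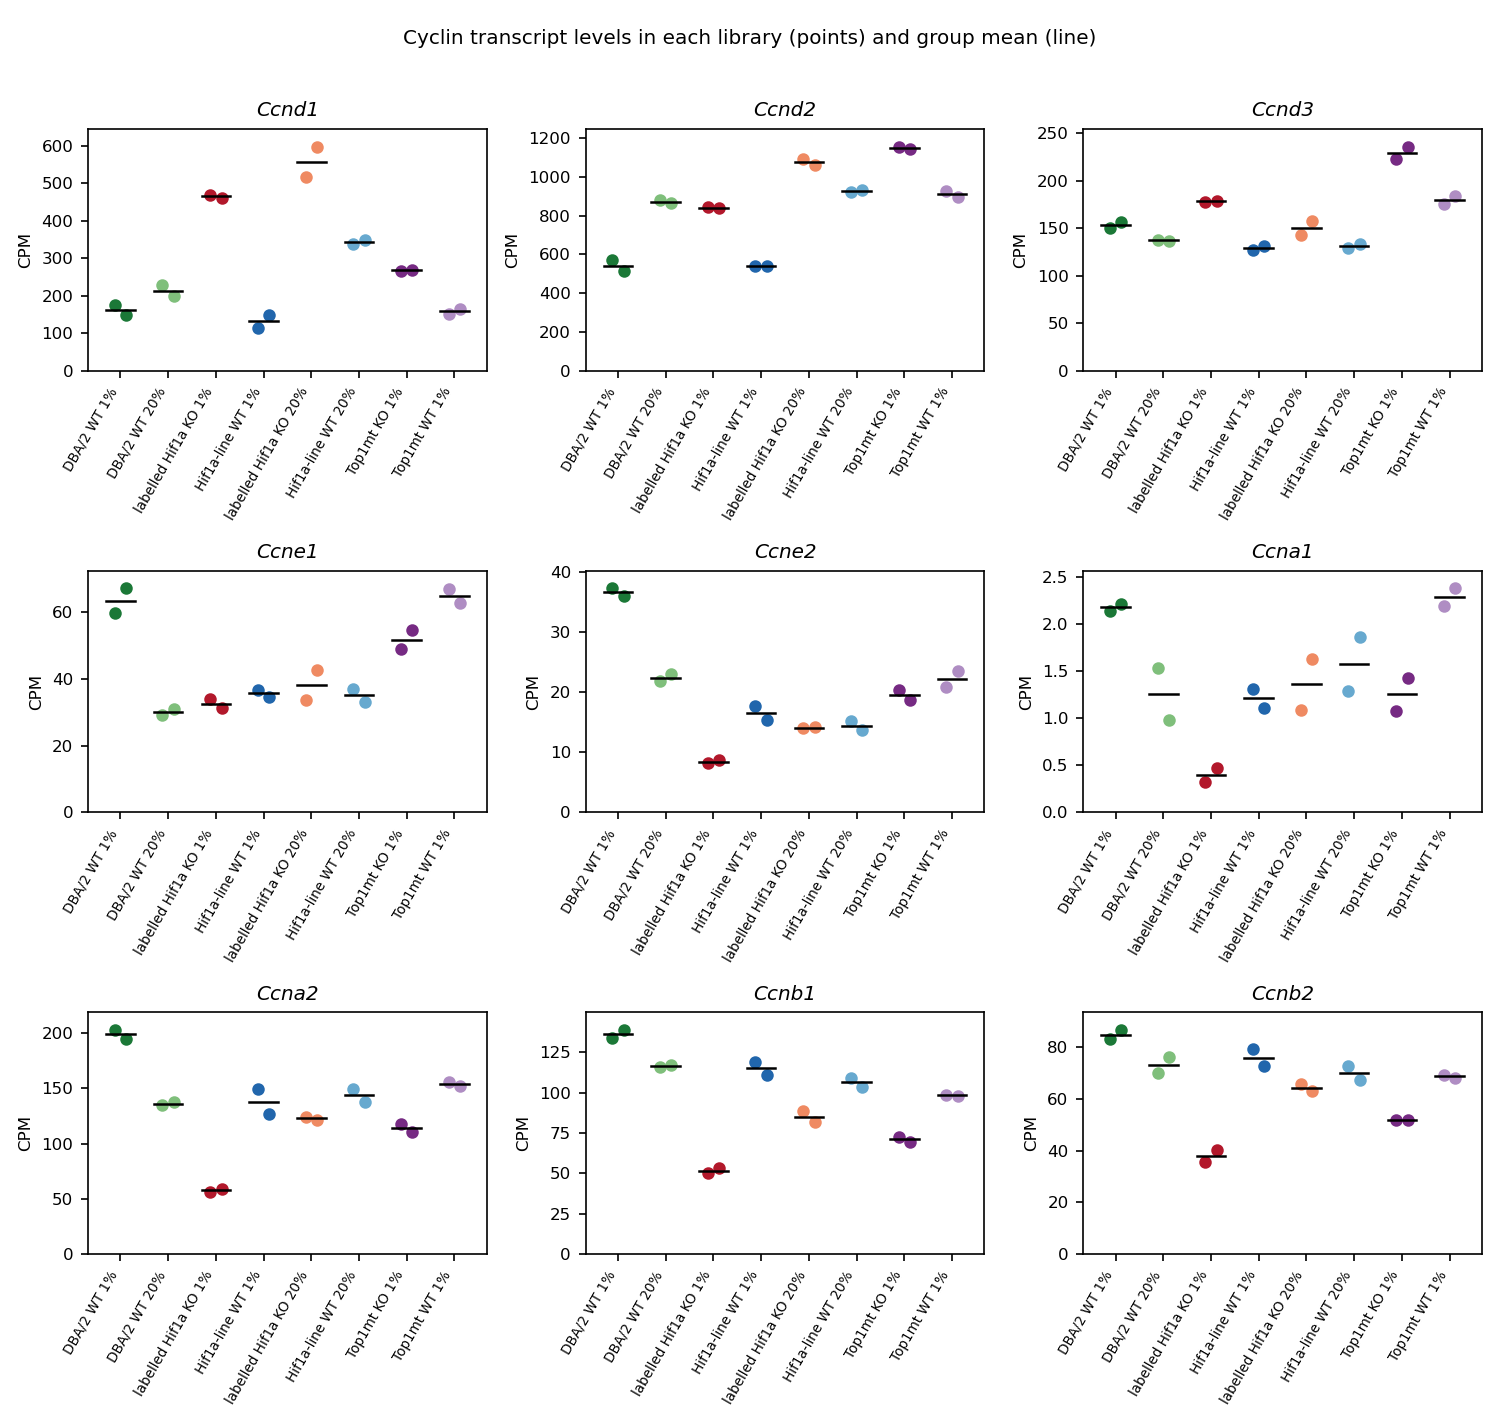
CPM (vertical axis, from 0) of each cyclin in each library (points) and the mean of its 2 libraries (line) in the 8 groups (horizontal axis). Ccnd1 stands at 461 to 598 CPM in the 4 libraries labelled Hif1a KO, while Ccna2, Ccnb1 and Ccnb2 are lowest in those at 1% oxygen.

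E cyclins were higher at 1% than at 20% oxygen in DBA/2 cells, while in Hif1a-line wild type cells neither passed the test. Ccne1, which activates Cdk2 at the entry into S phase, lies at chr7:38097984-38107534 (minus strand). It had 59.7 and 67.1 CPM in DBA/2 cells at 1%, against 29.2 and 31.1 CPM at 20%. Cells labelled Hif1a KO had 34.0 and 31.1 CPM at 1% and 33.7 and 42.8 CPM at 20%, and Hif1a-line wild type cells had 36.8 and 34.6 CPM at 1% and 37.1 and 33.0 CPM at 20%. Top1mt KO cells had 49.0 and 54.5 CPM, against 66.8 and 62.7 CPM in wild type. The DBA/2 groups were far apart at the 2 oxygen levels, and the libraries of the Hif1a line overlapped between oxygen levels.

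Ccne1 rose by 1.05 ± 0.09 in DBA/2 cells at 1% (limma adjusted p = 1.84e-08), and 0.96 to 1.13 when 1 library was left out. Its fold change in Hif1a-line wild type cells was 0.03 ± 0.09 (adjusted p = 0.825), and the 2 responses differed by -1.02 ± 0.13 (adjusted p = 5.65e-06; -0.89 less the median). In the libraries labelled Hif1a KO a fall of 0.22 ± 0.09 (adjusted p = 0.0436) became, uncalled, 0.14 under median-of-ratios scaling and 0.06 with edgeR, and the call was lost without library 2 at 20% (-0.05, adjusted p = 0.672) or library 2 at 1% (-0.15, adjusted p = 0.245). Labelled Hif1a KO differed from wild type by -0.13 ± 0.09 at 1% (adjusted p = 0.220; 0.15 under the other scaling) and by 0.11 ± 0.09 at 20% (adjusted p = 0.413), where it passed without labelled KO library 1 (0.28, adjusted p = 0.0457). The difference of their oxygen responses, -0.24 ± 0.13, did not pass (adjusted p = 0.128), but did without labelled KO library 1 at 20% (-0.41, adjusted p = 0.0102). Ccne1 fell by 0.32 ± 0.09 in Top1mt KO against wild type cells (adjusted p = 0.00693), a call lost without wild type library 1 (-0.27, adjusted p = 0.0658) or KO library 1 (-0.24, adjusted p = 0.0921).

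Ccne2, the second E cyclin, lies at chr4:11191351-11204779 (plus strand). It had 37.3 and 36.1 CPM in DBA/2 cells at 1%, against 21.8 and 23.1 CPM at 20%. With the Hif1a KO label the values were 8.14 and 8.69 CPM at 1% and 13.98 and 14.2 CPM at 20%, and Hif1a-line wild type cells had 17.7 and 15.4 CPM at 1% and 15.2 and 13.7 CPM at 20%. Libraries labelled Top1mt KO had 20.3 and 18.7 CPM, against 20.8 and 23.5 CPM in wild type. Libraries labelled Hif1a KO at 1% were the lowest and DBA/2 cells at 1% the highest, 4.36-fold apart in their means.

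Ccne2 rose by 0.68 ± 0.09 in DBA/2 cells at 1% (limma adjusted p = 4.31e-06) and had a fold change of 0.19 ± 0.09 in Hif1a-line wild type cells (adjusted p = 0.103), where it passed under median-of-ratios scaling (0.27, adjusted p = 0.0216) and with edgeR (0.28, adjusted p = 0.0225). It passed there also without library 2 at 1% (0.28, adjusted p = 0.0410). Within the libraries labelled Hif1a KO it fell by 0.68 ± 0.09 (adjusted p = 1.47e-06; -0.39 less the median). They were lower than wild type by -0.90 ± 0.09 at 1% (adjusted p = 3.70e-08; -0.69 less the median), whereas at 20% the difference was -0.03 ± 0.09 (adjusted p = 0.852). The oxygen responses of labelled KO and wild type differed by -0.87 ± 0.13 (adjusted p = 1.94e-05; -0.70 less the median), and those of the Hif1a line and DBA/2 by -0.50 ± 0.13 (adjusted p = 0.00475; -0.37 less the median). Top1mt KO differed from wild type by -0.18 ± 0.09 (adjusted p = 0.116).

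Of the A cyclins, Ccna2 is the form of dividing somatic and stem cells, and Ccna1 was barely present. Ccna1 lies at chr3:55045469-55055501 (minus strand) and had 5 to 49 reads per library, or 0.321 to 2.38 CPM. Its means were 2.18 ± 0.0541 CPM in DBA/2 cells at 1% and 1.26 ± 0.392 CPM at 20%, 0.394 ± 0.104 CPM in the libraries labelled Hif1a KO at 1% and 1.36 ± 0.385 CPM at 20% (SD, n = 2 each). They were 1.21 ± 0.141 CPM in Hif1a-line wild type cells at 1% and 1.58 ± 0.409 CPM at 20%, and 1.26 ± 0.248 CPM in Top1mt KO and 2.29 ± 0.134 CPM in Top1mt wild type cells (SD, n = 2 each). On the log2(CPM + 1) scale, which understates changes at this level, it rose by 0.51 ± 0.17 in DBA/2 cells at 1% (limma adjusted p = 0.0146), a call lost without library 2 at 20% (0.33), library 1 at 1% (0.52) or library 2 at 1% (0.49). It fell by 0.75 ± 0.17 in the libraries labelled Hif1a KO (adjusted p = 3.99e-04; -0.46 less the median) and was lower there than in wild type at 1%, at -0.67 ± 0.17 (adjusted p = 0.00128; -0.46 less the median). Top1mt KO was lower than wild type at -0.55 ± 0.17 (adjusted p = 0.00862), a call lost without wild type library 2 (-0.51) or KO library 1 (-0.43). Its fold changes of -0.21 ± 0.17 in Hif1a-line wild type cells at 1% (adjusted p = 0.301) and -0.13 ± 0.17 between labelled Hif1a KO and wild type at 20% (adjusted p = 0.628) did not pass. The Hif1a-line and DBA/2 responses differed by -0.72 ± 0.24 (adjusted p = 0.0184; -0.59 less the median), a call lost without library 2 of DBA/2 at 20% (-0.54) or 1% (-0.70) or wild type library 2 of the Hif1a line at 20% (-0.55) or 1% (-0.65). The difference between the labelled KO and wild type responses, -0.54 ± 0.24, did not pass (adjusted p = 0.0574), but did without wild type library 2 (-0.70) or labelled KO library 1 (-0.71) at 20%. The smallest counts, 5 and 12 reads, were those of the libraries labelled Hif1a KO at 1%.

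Ccna2, which pairs with Cdk2 and then Cdk1 during S and G2 phase, lies at chr3:36564865-36572150 (minus strand). It had 203 and 195 CPM in DBA/2 cells at 1%, against 135 and 137 CPM at 20%. For the Hif1a KO label they were 56.4 and 59.1 CPM at 1% and 124 and 121 CPM at 20%, and Hif1a-line wild type cells had 149 and 126 CPM at 1% and 149 and 138 CPM at 20%. The Top1mt KO libraries had 118 and 110.0 CPM, against 155 and 152 CPM in wild type. The labelled KO libraries at 1% were below all others, with 3.44-fold between the highest and lowest group mean, and the Hif1a-line wild type groups overlapped.

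Ccna2 rose by 0.54 ± 0.06 in DBA/2 cells at 1% (limma adjusted p = 6.65e-07) and had a fold change of -0.06 ± 0.06 in Hif1a-line wild type cells (adjusted p = 0.429), which passed as -0.18 (adjusted p = 0.0176) without library 1 at 1%. The 2 responses differed by -0.61 ± 0.09 (adjusted p = 2.57e-05; -0.48 less the median). In the libraries labelled Hif1a KO it fell by 1.07 ± 0.06 at 1% against 20% (adjusted p = 8.17e-12; -0.78 less the median), and this response differed from that of wild type by -1.01 ± 0.09 (adjusted p = 5.56e-08; -0.84 less the median). Against wild type, those libraries were lower at 1%, at -1.24 ± 0.06 (adjusted p = 3.47e-12; -1.03 less the median). At 20% the difference was -0.22 ± 0.06 (adjusted p = 0.0165), lost without wild type library 1 (-0.17) or labelled KO library 2 (-0.20). Top1mt KO was lower than wild type at -0.43 ± 0.06 (adjusted p = 1.09e-05).

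Both B cyclins moved as a pair, with a Pearson r of 0.99 over the 8 group means of log2(CPM + 1), and Ccna2 had r values of 0.92 with Ccnb1 and 0.95 with Ccnb2, as descriptions of groups that share lines and library sets. Ccnb1, the activator of Cdk1 in mitosis, lies at chr13:100778650-100786570 (minus strand). It had 134 and 139 CPM in DBA/2 cells at 1%, against 116 and 117 CPM at 20%. In libraries labelled Hif1a KO levels were 49.95 and 53.5 CPM at 1% and 88.6 and 81.7 CPM at 20%, and Hif1a-line wild type cells had 119 and 111 CPM at 1% and 109 and 104 CPM at 20%. Top1mt KO cells had 72.8 and 69.7 CPM, against 98.6 and 98.1 CPM in wild type. All compared groups were separate, and the libraries labelled Hif1a KO at 1% were again lowest.

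Ccnb2, the B cyclin of the Golgi region, lies at chr9:70407692-70421547 (minus strand). It had 83.03 and 86.6 CPM in DBA/2 cells at 1%, against 69.9 and 76.4 CPM at 20%. Under the KO label of the Hif1a line it had 35.7 and 40.3 CPM at 1% and 65.8 and 63.0 CPM at 20%, and Hif1a-line wild type cells had 79.3 and 72.7 CPM at 1% and 72.9 and 67.3 CPM at 20%. Libraries labelled Top1mt KO had 51.9 and 52.0 CPM, against 69.4 and 68.1 CPM in wild type. The order of the groups was close to that of Ccnb1, and the Hif1a-line wild type groups overlapped.

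Within DBA/2 cells at 1% oxygen Ccnb1 rose by 0.22 ± 0.06 (limma adjusted p = 0.00234) and Ccnb2 by 0.21 ± 0.07 (adjusted p = 0.0105); the call of Ccnb2 was lost without library 1 at 20% (0.15) or library 2 at 1% (0.18). In Hif1a-line wild type cells their fold changes were 0.11 ± 0.06 (adjusted p = 0.104) and 0.12 ± 0.07 (adjusted p = 0.152), and both passed under median-of-ratios scaling (0.20 each, adjusted p = 0.00539 for Ccnb1 and 0.0139 for Ccnb2); Ccnb1 passed also without library 2 at 1% (0.16, adjusted p = 0.0424). Within the libraries labelled Hif1a KO, Ccnb1 fell by 0.71 ± 0.06 (adjusted p = 5.01e-10; -0.42 less the median) and Ccnb2 by 0.75 ± 0.07 (adjusted p = 2.91e-09; -0.46 less the median). Their responses differed from those of wild type by -0.82 ± 0.08 for Ccnb1 (adjusted p = 1.24e-07; -0.65 less the median) and -0.86 ± 0.09 for Ccnb2 (adjusted p = 4.27e-07; -0.70 less the median). The Hif1a-line and DBA/2 responses differed by -0.11 ± 0.08 for Ccnb1 (adjusted p = 0.267) and -0.10 ± 0.09 for Ccnb2 (adjusted p = 0.419).

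At 1% oxygen the libraries labelled Hif1a KO were lower than wild type in Ccnb1 at -1.14 ± 0.06 (limma adjusted p = 2.02e-12; -0.93 less the median) and in Ccnb2 at -0.98 ± 0.07 (adjusted p = 8.31e-11; -0.78 less the median). At 20% Ccnb1 was lower at -0.32 ± 0.06 (adjusted p = 4.52e-04), and Ccnb2 at -0.12 ± 0.07 did not pass (adjusted p = 0.206). In Top1mt KO against wild type cells Ccnb1 was lower at -0.46 ± 0.06 (adjusted p = 8.54e-07) and Ccnb2 at -0.40 ± 0.07 (adjusted p = 3.90e-05).

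The germ cell markers moved beside the A and B cyclins where these fell. Their sum was lower in the libraries labelled Hif1a KO at 1% than at 20%, with a log2 ratio of -0.94 and 10 of 10 markers called lower, and lower than in wild type at 1%, with -1.17 and 10 of 10. In Top1mt KO against wild type cells the ratio was -0.46, with 10 of 10, and in labelled Hif1a KO against wild type at 20% it was -0.25, with 9 of 10. In DBA/2 cells the ratio of the sums at 1% over 20% was 0.01, with 3 of 10 markers called higher and 4 lower. In Hif1a-line wild type cells it was -0.02, with 2 higher and 3 lower, so single markers moved both ways under nearly equal sums. Per 1000 CPM of germ cell markers, Ccnb1 lay between 27.2 and 33.4 in the 8 groups, a range of 1.23-fold, against 2.63-fold in CPM. For Ccnb2 these ranges were 1.44-fold and 2.23-fold, and for Ccna2 1.62-fold and 3.44-fold. Ccna2 had 45.9 per 1000 CPM of germ cell markers in DBA/2 cells at 1% and 31.7 at 20%, and Ccne1 had 14.7 at 1% and 7.03 at 20%. The D cyclins spread further on this scale than in CPM, with 7.997-fold for Ccnd1, against 4.23-fold in CPM, and 4.34-fold for Ccnd2, against 2.13-fold. Ccnd3 had 3.61-fold, against 1.77-fold. Ccne1 spread further too, with 3.31-fold against 2.15-fold. Ccne2 narrowed, with 2.14-fold against 4.36-fold, as did Ccna1, with 2.95-fold against 5.80-fold. The part of germ cell RNA in the cyclin levels was not tested.

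**Figure D4:**
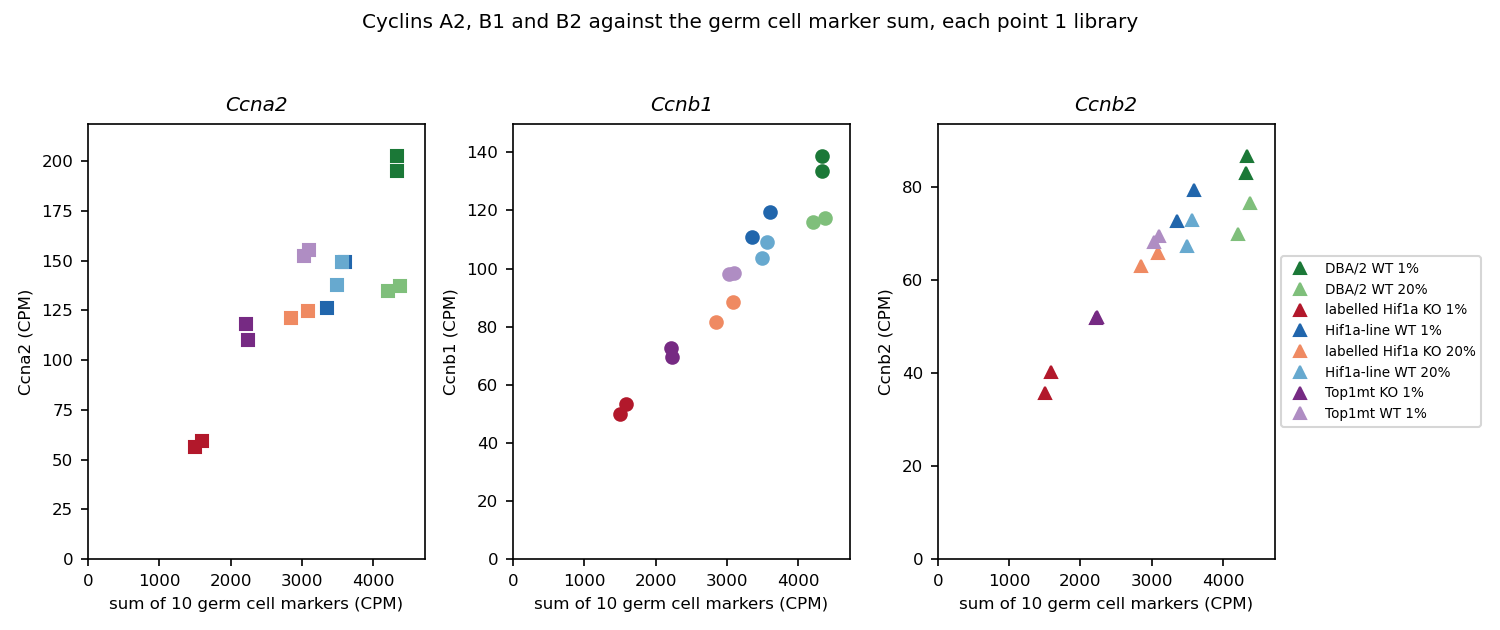
CPM of Ccna2, Ccnb1 and Ccnb2 (vertical axes, from 0) against the summed CPM of 10 germ cell markers (horizontal axes, from 0), each point 1 library, coloured by group. Ccnb1 has 49.95 and 53.5 CPM at the lowest marker sums, in the libraries labelled Hif1a KO at 1%, while Ccna2 in DBA/2 cells is 203 and 195 CPM at 1% and 135 and 137 CPM at 20% at similar sums.

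Cdk4, the main partner of D cyclins, had a fold change of -0.05 ± 0.04 in DBA/2 cells at 1% (limma adjusted p = 0.396) and fell by 0.29 ± 0.04 in Hif1a-line wild type cells (adjusted p = 1.66e-05) and by 0.35 ± 0.04 in the libraries labelled Hif1a KO (adjusted p = 3.74e-07), which was -0.06 less the median and not called, at 0.01, under median-of-ratios scaling (adjusted p = 0.864). Cdk6, the other D partner, was higher in labelled Hif1a KO than in wild type at 1% by 0.61 ± 0.08 (adjusted p = 9.01e-07; 0.82 less the median) and in Top1mt KO by 0.90 ± 0.08 (adjusted p = 1.61e-08), as the 3 D cyclins were. Mean Cdk4 in those comparisons was 200 CPM in labelled Hif1a KO against 203 CPM, and 249 CPM in Top1mt KO against 255 CPM. The median log2 fold change of all genes was -0.21 in the former and -0.04 in the latter. Cdk1, the partner of B cyclins, was lower in those comparisons at -0.53 ± 0.06 (adjusted p = 2.35e-07; -0.32 less the median) and -0.47 ± 0.06 (adjusted p = 2.87e-06). Cdk2, the partner of E and A cyclins, fell by 0.28 ± 0.05 in DBA/2 cells (adjusted p = 4.17e-05), where Ccne1, Ccne2 and Ccna2 rose.

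Mki67, a marker of dividing cells, had 323 and 321 CPM in DBA/2 cells at 1%, against 239 and 259 CPM at 20%, and rose by 0.37 ± 0.06 (limma adjusted p = 4.95e-05). It had 168 and 176 CPM in the libraries labelled Hif1a KO at 1% and 370.2 and 326 CPM at 20%, beside 429 and 413 CPM in Hif1a-line wild type cells at 1% and 412 and 405 CPM at 20%. The Top1mt KO libraries had 232 and 206 CPM, against 349 and 328 CPM in wild type. Mki67 was lower in labelled Hif1a KO than wild type at 1%, at -1.28 ± 0.06 (adjusted p = 1.91e-12; -1.08 less the median), and in Top1mt KO, at -0.63 ± 0.06 (adjusted p = 6.47e-08). Of the 8 proliferation markers, 8 were called lower in each of these comparisons and in the oxygen contrast of the libraries labelled Hif1a KO, 4 rose and 3 fell in DBA/2 cells, and 3 fell in Hif1a-line wild type cells. Their median log2 fold change was -1.02 in labelled Hif1a KO against wild type at 1%, -0.62 in Top1mt KO against wild type and 0.14 in DBA/2 cells, beside -0.21, -0.04 and 0.04 for all genes. Of all genes, 49.1%, 33.2% and 25.5% were called lower in these comparisons, and 31.8% higher in DBA/2 cells. The oxygen contrast had 54.7% lower in the libraries labelled Hif1a KO and 34.6% in Hif1a-line wild type cells.

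CDK inhibitors, which oppose cyclin-bound kinases, were called higher in more members than lower in every comparison within a line. The narrowest margin was 3 of 7 higher and 2 lower, in labelled Hif1a KO against wild type at 20%. All genes also leaned higher there (12.9% higher, 9.55% lower) and in DBA/2 cells at 1% (31.8% and 25.5%). They leaned lower in the other comparisons within a line under the main scaling. Within DBA/2 cells at 1% oxygen 5 of 7 rose and 1 fell, led by Cdkn1c (p57), which had 94.2 CPM at 1% and 38.0 CPM at 20% (1.29 ± 0.08, limma adjusted p = 7.33e-11). In Hif1a-line wild type cells 2 of 7 rose, Cdkn1a (p21) by 1.30 ± 0.10 (adjusted p = 3.10e-09) and Cdkn1c by 0.38 ± 0.08 (adjusted p = 4.33e-04). In the libraries labelled Hif1a KO 6 of 7 rose at 1% against 20%, with Cdkn1a at 767 CPM against 195 CPM (1.97 ± 0.10, adjusted p = 1.01e-12; 2.27 less the median). Against wild type at 1% those libraries had 4 of 7 higher and none lower, Cdkn1a by 1.42 ± 0.10 (adjusted p = 1.75e-10; 1.63 less the median) and Cdkn2b, an inhibitor of Cdk4 and Cdk6, by 1.26 ± 0.10 (adjusted p = 1.00e-09; 1.47 less the median). Top1mt KO against wild type had 4 higher and 1 lower, Cdkn1a by 0.75 ± 0.10 (adjusted p = 3.38e-06).

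Of 6 activators of cyclin transcription, most were lower in the KO comparisons at 1%, while at 20% labelled Hif1a KO against wild type had 1 higher, 1 lower and 4 not called. Of all genes, 49.1% were lower in labelled Hif1a KO and 33.2% in Top1mt KO at 1%. At 20%, 12.9% were higher and 9.55% lower in labelled Hif1a KO. Foxm1 and Mybl2, activators of G2 and M phase genes, were lower in labelled Hif1a KO than in wild type at 1%, at -1.02 ± 0.05 (limma adjusted p = 3.87e-12; -0.81 less the median) and -1.14 ± 0.06 (adjusted p = 3.24e-12; -0.94 less the median), among 5 lower and 1 higher. In Top1mt KO 4 were lower and 1 higher, Mybl2 at -0.94 ± 0.06 (adjusted p = 1.28e-10) and Foxm1 at -0.39 ± 0.05 (adjusted p = 3.53e-06). In DBA/2 cells at 1%, where Ccnb1 and Ccnb2 rose, Foxm1 fell by 0.23 ± 0.05 (adjusted p = 0.00138) and Mybl2 by 0.26 ± 0.06 (adjusted p = 9.11e-04). Myc, an activator of Ccnd2, rose by 1.53 ± 0.13 in Hif1a-line wild type cells at 1% (adjusted p = 1.21e-08), where Ccnd2 fell.

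Of the 13 RB and E2F family genes, which lie between D cyclins and the E and A cyclins, 11 were lower and 1 higher in labelled Hif1a KO than in wild type at 1%, and 10 lower and 2 higher in Top1mt KO; E2f1 was at -0.64 ± 0.05 (limma adjusted p = 5.36e-10; -0.43 less the median) and -0.84 ± 0.05 (adjusted p = 5.52e-11). Of all genes, 49.1% were lower and 28.3% higher in the first of these comparisons, and 33.2% and 25.2% in the second. Within DBA/2 cells at 1% oxygen 4 rose and 2 fell, E2f1 by 0.21 ± 0.05 upward (adjusted p = 0.00122) and E2f3 by 0.53 ± 0.06 downward (adjusted p = 2.92e-07). There 31.8% of all genes rose and 25.5% fell. Of the 8 genes of cyclin degradation, 8 were lower in labelled Hif1a KO and 7 in Top1mt KO than in wild type at 1%. Ambra1, which is known to target D cyclins for degradation, fell by 0.38 ± 0.05 in DBA/2 cells (adjusted p = 1.61e-06) and by 0.32 ± 0.05 in Hif1a-line wild type cells (adjusted p = 1.74e-05) at 1% oxygen, and was lower in Top1mt KO at -0.76 ± 0.05 (adjusted p = 1.29e-10). Of the 5 genes that add or remove the inhibitory phosphate of CDKs, 5 were lower in labelled Hif1a KO and 4 in Top1mt KO at 1%; Wee1, which adds it, was at -1.19 ± 0.06 (adjusted p = 5.42e-12; -0.99 less the median) and -0.51 ± 0.06 (adjusted p = 1.47e-06).

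Of 13 other cyclins, 8 rose and 2 fell in DBA/2 cells at 1%, and 7 rose and 2 fell in Hif1a-line wild type cells. Of all genes, 31.8% rose and 25.5% fell in the former, and 18.4% rose and 34.6% fell in the latter. Ccng2, a cyclin linked to cell cycle arrest, rose by 0.74 ± 0.06 in DBA/2 cells (limma adjusted p = 2.80e-09), by 0.92 ± 0.06 in Hif1a-line wild type cells (adjusted p = 1.38e-10) and by 1.30 ± 0.06 in the libraries labelled Hif1a KO (adjusted p = 1.71e-13; 1.59 less the median). Ccng1, a target of p53, was higher in labelled Hif1a KO than in wild type at 1% by 1.71 ± 0.06 (adjusted p = 3.63e-13; 1.91 less the median), where 3 of the 13 were higher and 7 lower. Of all genes, 28.3% were higher and 49.1% lower there.

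Wild type cells of the 3 lines were compared as levels, since background, culture and library set differ at once. Days at 1% oxygen may differ too, as names have "6d" in the Hif1a line, "2d" in the Top1mt line and no day in DBA/2. At 20% oxygen, Hif1a-line against DBA/2 cells had 2 of 9 cyclins called, where 48.9% of all genes were, 26.4% higher and 22.6% lower: Ccnd1 was higher by 0.70 ± 0.10 (limma adjusted p = 7.34e-06) and Ccne2 lower at -0.60 ± 0.09 (adjusted p = 3.00e-05). At 1%, C57BL/6 cells of the Top1mt line against DBA/2 cells had 6 of 9, where 61.8% were, 28.9% higher and 32.9% lower, with Ccnd2 higher by 0.75 ± 0.05 (adjusted p = 2.22e-10), Ccnd3 higher, and Ccne2, Ccna2, Ccnb1 and Ccnb2 lower. Hif1a-line against C57BL/6 cells at 1% had 8 of 9, where 58.1% were, 24.3% higher and 33.9% lower; Ccnb1 was higher by 0.22 ± 0.06 (adjusted p = 0.00198) and 7 were lower, led in size by Ccne1 at -0.84 ± 0.09 (adjusted p = 2.95e-07). Of those 7, the call of Ccnd1 was lost without wild type library 1 of the Hif1a line (-0.08) or library 2 of C57BL/6 (-0.22), and that of Ccna2 without library 2 of the Hif1a line (-0.04) or either C57BL/6 library (-0.15 and -0.18). Both calls were also lost under median-of-ratios scaling, at -0.21 for Ccnd1 and -0.10 for Ccna2, and Ccnb2 passed there, at 0.20 (adjusted p = 0.0118), and without library 2 of the Hif1a line, also at 0.20 (adjusted p = 0.0304). Cell type markers moved in these comparisons too. In C57BL/6 against DBA/2 cells at 1% the feeder sum was higher by 1.69, with 18 of 20 markers called higher and 2 lower, and the germ cell sum had a log2 ratio of -0.50, with 6 of 10 called lower. In Hif1a-line against C57BL/6 cells the ratio was 0.75 for feeder markers, with 15 of 20 called higher and 2 lower. For germ cell markers it was 0.18, with 5 of 10 called higher and 1 lower. For Hif1a-line against DBA/2 cells at 20% the feeder ratio was 0.37, with 12 of 20 higher and 1 lower. The germ cell ratio there was -0.28, with 7 of 10 lower and 1 higher. The part of cell mixture in the cyclin differences was not tested.

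In the order of the group means, neighbours whose libraries overlapped were 1 of 7 pairs for Ccnd1 and Ccnb1, 2 for Ccnd2, Ccne2 and Ccna2, 3 for Ccnd3 and Ccnb2, 4 for Ccne1 and 5 for Ccna1. Genes most like each member were those with the highest Pearson r of the 8 group means of log2(CPM + 1), among 6198 genes with a mean of at least 5 CPM and a range of at least 1. For Ccnd1 they were Gsto1 (0.99), Klhdc8a (0.97) and Crip2 (0.95), and for Ccnd2 Tmem200a (0.92), Mical1 (0.91) and Id1 (0.90). For Ccne1 they were Efna3 (0.98), Syt7 (0.96) and Bivm (0.95), and for Ccne2 Lonrf1, Fkbp3 and Nkrf (0.99 each). For Ccna1 they were Zcchc3 (0.99), Cyb561 and Muc3a (0.98 each), and for Ccna2 Tent4a (1.00), Trap1a and Nasp (0.99 each). For Ccnb1 they were Setdb2, Rnf212b and Gm44 (0.99 each), and for Ccnb2 Ddx19b, Cenpw and Phtf2 (0.99 each). Ccnd3 had a range under 1 and was not matched. With so many candidates and 8 points that share lines, an r this high is a description of these groups. Ccnd1 and Ccnd2, both D cyclins, had an r of 0.65 with each other, and Ccnd1 had -0.70 with Ccne2.

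Exons of Ccnd1, Ccnd2, Ccnd3, Ccne2, Ccna1 and Ccna2 overlap exons of a gene on the other strand by 185 to 818 bases in GENCODE M21. The labels do not give the strand setting of the counting, so reads in those stretches cannot be told apart. Ccnd3, Ccnb1 and Ccnb2 each have a processed pseudogene, on chromosomes 4, 7 and 8, that could share reads with them.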

How the data were processed

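Expression came as CPM in a single table that the authors deposited, covering 21924 genes that code for protein in all 16 libraries. Per the labels' protocols, RNA was extracted with an RNeasy Plus Micro Kit and libraries were made with a TruSeq stranded mRNA kit. The submitters' processing notes name cutadapt 1.16, STAR 2.6.0c, HTSeq 0.11.2, DESeq2 1.22.2 and build mm10, without roles. The smallest non-zero CPM of each library was taken as 1 read, which gave its read total, and 100% of values then came out as whole reads within 0.01. Genes with at least 1 CPM in at least 2 libraries (14841) were fitted with limma 3.58.1 (R 4.3.3) on log2(CPM + 1), with a trend and 1 spread estimate for all 8 groups. Calls used an adjusted p of 0.05 with no fold limit. The fit was tested on simulated data. edgeR 4.0.16 on recovered reads, median-of-ratios scaling, a pseudocount of 0.5, no filter, fits of the compared groups alone, a replicate block and leaving out each library were the alternatives; edgeR called 3166 to 11059 genes over the 11 comparisons. In no group were replicate libraries identical, and they differed by more than sampling noise. The chi-square per gene, over genes with at least 20 reads, was 7.60 in Hif1a-line wild type at 1% and 1.79 to 3.68 in the other groups. As 1 spread estimate served all 8 groups, standard errors do not reflect this difference. Named genes were the 9 members, Hif1a, Top1mt, Mki67, Cdk1, Cdk2, Cdk4, Cdk6, up to 4 called genes of each pathway list with the smallest adjusted p, and 3 like genes per member. The members and lists were chosen with earlier results of these data known. Exon lengths and positions are from GENCODE M21 and promoters from RefSeq, both GRCm38. Hypoxia bags held 1% oxygen, per the labels' protocols.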

Additional observations from a re-analysis of the deposited data

Results flagged for a closer look

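A test of the difference between 2 oxygen responses, 1% against 20% oxygen in each, set apart 13 values on the log2 scale (limma interaction term, n = 2 libraries per group). For the libraries labelled Hif1a KO minus Hif1a-line wild type, the D cyclins had positive differences: Ccnd1 1.134, Ccnd2 0.4185 and Ccnd3 0.2708. In the same contrast the others that passed were negative: Ccne2 -0.8681, Ccna2 -1.0113, Ccnb1 -0.8181 and Ccnb2 -0.8632. For Hif1a-line wild type minus DBA/2 wild type, 6 cyclins passed and all were negative: Ccnd1 -1.0063, Ccnd3 -0.182, Ccne1 -1.019, Ccne2 -0.4988, Ccna1 -0.7175 and Ccna2 -0.6062. Beside them, 58.0% of all genes passed in the first contrast and 46.0% in the second, there 15.1% higher and 30.9% lower. The median of all genes was -0.17 in the first and -0.13 in the second. Less that median, Ccnd3 was -0.05 and Ccna1 -0.59 in the second contrast. The call of Ccnd3 there was lost under median-of-ratios scaling and with edgeR. Leaving out single libraries also lost the calls of Ccnd3 and Ccna1 there. In the first contrast the germ cell marker sum had log2 ratios of -0.94 in the libraries labelled Hif1a KO and -0.02 in wild type, and in the second -0.02 in the Hif1a line and 0.01 in DBA/2 cells. Of 10 germ cell markers, 10 had a response called lower in the first contrast, and 2 higher and 2 lower in the second. The feeder sum had log2 ratios of 2.10 in the libraries labelled Hif1a KO and 1.72 in wild type, and 1.72 in the Hif1a line and -0.35 in DBA/2 cells. In each contrast 16 of 20 feeder markers had a response called higher. In the second contrast 2 were called lower, Acta2 at -1.26 and Tagln at -1.45. The part of cell mixture in these differences was not tested. Names of the Hif1a-line libraries at 1% have "6d" and those of DBA/2 no day, so days at 1% may differ in the second contrast.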

How the results depend on the processing

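Over 11 comparisons, 956 member values kept direction and side of the threshold, 22 passed only under an alternative, 51 no longer passed, and 33 changed sign; no value that changed sign was called after the change. For the libraries labelled Hif1a KO at 1% against 20%, where calls were lost with the sign, median-of-ratios scaling gave Ccnd1 0.1062, Ccnd2 0.0046 and Ccne1 0.1384, and edgeR gave Ccnd1 0.0598 and Ccne1 0.0641. The others were called neither way. Scaling and edgeR gave 0.0657 and 0.0696 for Ccnd3 and 0.0246 and 0.0279 for Ccna2 in Hif1a-line wild type cells, 0.1471 and 0.1131 for Ccne1 in labelled KO against wild type at 1%, and 0.0287 and 0.0290 for Ccnd1 in C57BL/6 against DBA/2 cells. For the Hif1a-line minus DBA/2 response they gave 0.0354 and 0.0389 for Ccnd2, 0.0141 and 0.0187 for Ccnb1 and 0.0271 and 0.0334 for Ccnb2. Scaling gave 0.0254 for Ccne1 in the labelled KO minus wild type response. Leaving out 1 library gave -0.0444 to 0.0016 for Ccnd3, -0.0531 to 0.1084 for Ccne1 and -0.1834 to 0.0582 for Ccna2 in Hif1a-line wild type cells. It gave -0.0543 to 0.2828 for Ccne1, -0.1003 to 0.0419 for Ccne2 and -0.2931 to 0.0412 for Ccna1 in labelled KO against wild type at 20%. It gave -0.1244 to 0.0029 for Ccnb2 in Hif1a-line against DBA/2 cells, and -0.1583 to 0.0795 for Ccnd1 and -0.0520 to 0.1137 for Ccne1 in C57BL/6 against DBA/2 cells. The causes were not tested. In Hif1a-line wild type cells at 1% against 20%, 5 cyclins were called under median-of-ratios scaling and 5 with edgeR, 3 higher and 2 lower in each, against 2, both lower. Hif1a-line against DBA/2 cells at 20% had 5 when these groups alone were fitted, against 2. Leaving out 1 library gave 5 to 8 called cyclins in DBA/2 cells (9 with all), the lowest without library 2 at 1%, and 2 to 4 in Hif1a-line wild type cells (2), the highest without library 2 at 1%. It gave 7 to 9 in the libraries labelled Hif1a KO (9), 3 to 6 between these and wild type at 20% (5), the lowest without wild type library 1 or labelled KO library 2, and 8 at 1% (8). It gave 6 to 8 for Top1mt KO (8), 7 to 9 for the labelled KO minus wild type response (7), 4 to 5 for the Hif1a-line minus DBA/2 response (6), 2 for Hif1a-line against DBA/2 (2), 6 for C57BL/6 against DBA/2 (6) and 6 to 8 for Hif1a-line against C57BL/6 (8). All genes called between labelled KO and wild type at 20% numbered 3329, and 1508, 1960 or 1574 without wild type library 1, wild type library 2 or labelled KO library 2. Replicate numbers 1 and 2 of the sample titles, used here, are shared across groups, but no label says what a number marks. In the submitters' library names, library 2 of the DBA/2 and Top1mt KO groups carries the number 3 instead. Libraries with the same title number had deviations with r of -0.08 to 0.15. With a replicate block, 98 of 99 member values kept their call, and Ccnb1 of Hif1a-line against DBA/2 cells at 20% passed at -0.1323 (limma adjusted p = 0.0485). Depth limits Ccna1 alone among the 9, with 5 to 49 reads per library.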
